A study of Mus musculus with 15 samples.

Results

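The aryl hydrocarbon receptor (AHR) pathway was followed in mouse chondrocytes through 8 of the 24134 genes listed in each of 2 count tables. The genes were chosen by name and matched by Entrez ID: *Ahr*, *Arnt*, *Ahrr*, *Tiparp*, *Cyp1a1*, *Cyp1b1*, *Nqo1* and *Aldh3a1*. *Ahrr* had also been seen, in these same libraries, to differ between the inhibitor XAV939 and a gene knockdown, so its values are given as a description, with no test. RNA sequencing covered 15 libraries of primary articular chondrocytes from the knees of ICR mouse pups a few days old, kept in serum-containing medium and not passaged. In the siRNA set, 3 libraries received control siRNA (siCtrl) and 3 received siRNAs against *Tnks* and *Tnks2* together (si*Tnks/2*). In the drug set, 3 libraries each received DMSO, 10 μM XAV939 or 10 μM IWR-1 for 108 h. *Tnks* and *Tnks2* encode the tankyrases, which attach chains of ADP-ribose to other proteins. XAV939 and IWR-1 are chemically unlike inhibitors of these enzymes that bind different parts of the catalytic domain. The study describes the 3 libraries of a group as biological replicates, and the number of pups behind a library is not given in the sources used here.

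AHR is a transcription factor of the bHLH-PAS family that waits in the cytoplasm in a complex with HSP90 and other chaperones. When it binds a ligand, such as a dioxin, a plant compound or a tryptophan metabolite, it moves to the nucleus, pairs with ARNT and binds a short DNA element. Its best known targets are cytochrome P450 genes, chiefly *Cyp1a1* and *Cyp1b1*, and enzymes that detoxify quinones and aldehydes, *Nqo1* and *Aldh3a1*. Negative feedback comes from 2 further targets: *Ahrr* encodes a repressor that competes for ARNT, and *Tiparp* encodes a mono-ADP-ribosyltransferase that acts on AHR itself.

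RefSeq promoter windows on GRCm38.p6, the assembly also named mm10, were found for 6 of the 8 genes and not for *Ahr* and *Aldh3a1*. Each window is 300 bases long, most of it before the annotated start, and is written on the gene's own strand. The windows of the repressor, the feedback enzyme and the 2 cytochromes are shown because *Ahrr* and *Cyp1a1* each stood out in 1 of the comparisons, and *Cyp1b1* and *Tiparp* differed between treatments. Capitals mark GCGTG, the core of the AHR element, read on either strand (CACGC on the reverse). The same letters also occur in some hypoxia elements bound by other partners of ARNT. The *Ahrr* window is chr13:74292282-74292581 (minus strand), that of *Cyp1a1* chr9:57697363-57697662 (plus), that of *Cyp1b1* chr17:79715012-79715311 (minus) and that of *Tiparp* chr3:65528197-65528496 (plus).
Ahrr: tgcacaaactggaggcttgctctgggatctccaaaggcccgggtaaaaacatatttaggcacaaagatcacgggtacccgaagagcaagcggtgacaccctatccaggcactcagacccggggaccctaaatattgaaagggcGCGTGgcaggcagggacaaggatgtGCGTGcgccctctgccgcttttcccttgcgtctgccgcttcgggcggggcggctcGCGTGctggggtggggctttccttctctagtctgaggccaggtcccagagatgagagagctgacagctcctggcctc
Cyp1a1: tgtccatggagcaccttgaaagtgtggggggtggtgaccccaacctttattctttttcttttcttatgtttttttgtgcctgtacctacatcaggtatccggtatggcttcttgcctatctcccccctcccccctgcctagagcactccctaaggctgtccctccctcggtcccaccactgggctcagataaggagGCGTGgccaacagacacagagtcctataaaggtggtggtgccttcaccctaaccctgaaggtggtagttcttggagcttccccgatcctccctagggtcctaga
Cyp1b1: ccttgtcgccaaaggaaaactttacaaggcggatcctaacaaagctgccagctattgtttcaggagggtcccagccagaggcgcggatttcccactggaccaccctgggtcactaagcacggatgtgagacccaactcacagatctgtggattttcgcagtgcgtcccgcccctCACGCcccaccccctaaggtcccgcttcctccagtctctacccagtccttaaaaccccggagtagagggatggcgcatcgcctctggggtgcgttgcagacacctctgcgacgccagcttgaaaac
Tiparp: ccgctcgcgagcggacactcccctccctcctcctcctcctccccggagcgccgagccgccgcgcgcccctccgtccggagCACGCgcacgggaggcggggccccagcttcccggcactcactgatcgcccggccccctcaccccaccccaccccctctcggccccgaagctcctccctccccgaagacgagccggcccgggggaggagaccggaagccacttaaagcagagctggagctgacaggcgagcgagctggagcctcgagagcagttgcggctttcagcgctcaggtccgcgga

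The *Ahrr* window held 3 matches to the core, at positions -107, -82 and -27 from the start, all on the gene's strand. The match at -27 also had the longer form TNGCGTG. *Arnt*, *Cyp1a1*, *Cyp1b1* and *Tiparp* each held 1 match and *Nqo1* held 0. Among all 32851 mouse promoter windows of this length, 32.4% held at least 1 core match, 3.91% held at least 3 and 5.07% held the longer form. A match is a description of letters and not of binding, and windows of this size leave out elements further upstream.

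**Figure D1:**
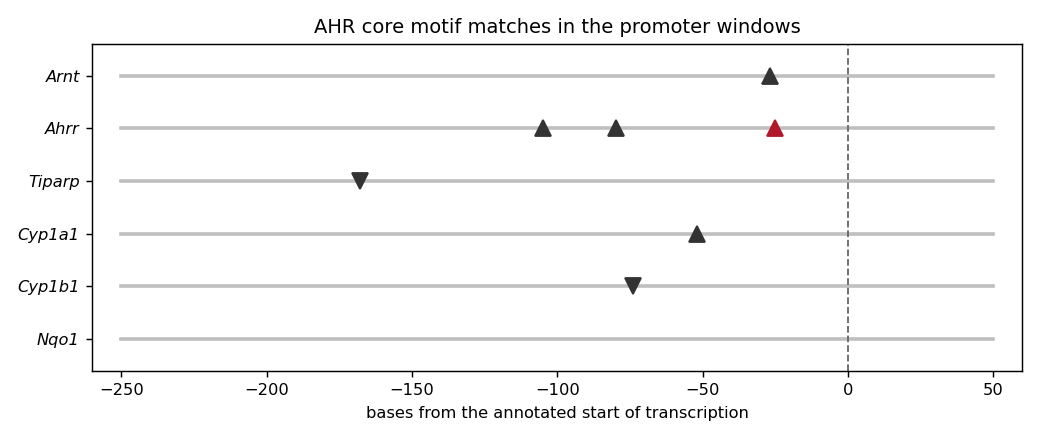
Matches to the 5-base AHR core in the promoter windows of 6 pathway genes, by distance in bases from the annotated start (dashed line). Triangles pointing up are matches on the gene's strand and pointing down on the opposite strand, and red marks the match with the longer form. *Ahrr* carries 3 matches and *Nqo1* carries 0.

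Library totals ran from 26857070 to 36615194 counts. The knockdown lowered both targets, *Tnks* by a log2 change of -1.81 (adjusted p = 0.0057, edgeR quasi-likelihood test) and *Tnks2* by -1.10 (adjusted p = 0.0038). Chondrocyte markers such as *Col2a1* and *Acan* were abundant in every library, and the summed level of 9 of them lay between 26843 and 36174 CPM (counts scaled to library depth) in DMSO, between 37005 and 55772 CPM in XAV939 libraries, and between 89427 and 113421 CPM under IWR-1. The same sum ran from 86044 to 115180 CPM in siCtrl and from 122811 to 199812 CPM in si*Tnks/2*. The sum of 6 fibroblast and synovial markers ran from 9188 to 12125 CPM in DMSO, 4303 to 6390 CPM under XAV939, 3278 to 5693 CPM under IWR-1, 3275 to 5585 CPM in siCtrl and 1595 to 4499 CPM in si*Tnks/2*. By edgeR 3 of the 9 chondrocyte markers rose after the knockdown (8 by DESeq2, 7 with the replicate number as a block), 3 with XAV939 (6 and 8) and 9 with IWR-1, and of the 6 fibroblast and synovial markers 4 fell with each inhibitor. Over all genes edgeR called 2459 of 13672 after the knockdown, DESeq2 3172 and the block 4727. With XAV939 these were 2416, 2922 and 4630 of 13873, and with IWR-1 5049, 5305 and 6593. Of 6 leukocyte markers, summing to 35.0 to 44.4 CPM in DMSO, 31.7 to 38.5 CPM under XAV939, 14.4 to 20.2 CPM under IWR-1, 9.31 to 12.0 CPM in siCtrl and 8.33 to 9.92 CPM in si*Tnks/2*, 5 were tested in the drug set and 3 fell with IWR-1, and 1 of 3 fell after the knockdown (*Cd14*, -0.57). The 3 with IWR-1 were *Cd14* (-1.60), *Cd68* (-1.02) and *Csf1r* (-1.16), while *Ptprc*, the defining marker, did not exceed 0.157 CPM in any library. The adipocyte marker *Fabp4* was called higher after the knockdown (0.93) and lower with XAV939 (-0.60) and IWR-1 (-1.61). Of 3 osteoblast markers *Sp7* and *Bglap* were called higher with both inhibitors (1.51 to 2.47), while *Ibsp* was not (-0.35 with IWR-1). After the knockdown edgeR called 0 of these 3, and DESeq2 and the replicate block each called 2 higher. Their sum ran from 42.1 to 65.1 CPM in DMSO, 56.5 to 65.7 CPM under XAV939 and 42.1 to 60.6 CPM under IWR-1. It ran from 58.8 to 70.1 CPM in siCtrl and 75.3 to 130.3 CPM in si*Tnks/2*. The sum of 3 muscle markers ran from 2.58 to 6.91 CPM in siCtrl and 2.85 to 4.11 CPM in si*Tnks/2*. It did not exceed 0.957 CPM in the drug set. The part of these shifts in the results on the AHR pathway was not tested, and in bulk RNA fewer cells of a type and less RNA per cell cannot be told apart.

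Per kilobase of exon, *Cyp1b1* and *Nqo1* were the highest of the pathway genes in the siCtrl libraries, with 46.4 and 42.2 CPM per kb. *Tiparp* followed with 12.1, *Arnt* with 8.83 and *Ahr* with 2.30 CPM per kb. *Aldh3a1* with 1.0, *Ahrr* with 0.633 and *Cyp1a1* with 0.048 CPM per kb were the lowest. In DMSO the order of the abundant genes was the same, with 40.3 CPM per kb for *Cyp1b1*, 37.5 for *Nqo1*, 23.4 for *Tiparp*, 9.39 for *Arnt* and 5.42 for *Ahr*.

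**Figure D2:**
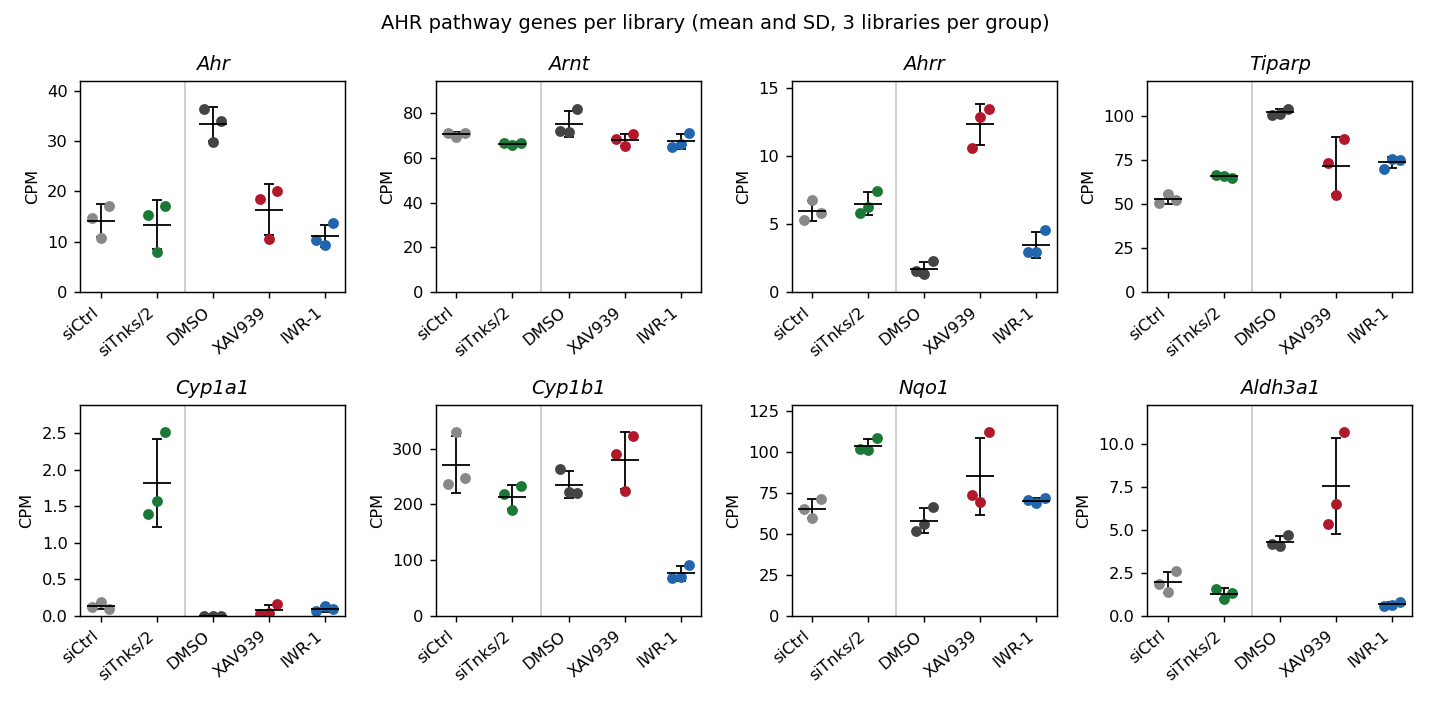
CPM of the 8 AHR pathway genes in each of the 15 libraries, with the mean and SD of the 3 libraries per group; the grey line separates the siRNA set from the drug set, which were normalized separately. *Ahrr* is highest in the XAV939 libraries (10.6 to 13.5 CPM), *Cyp1a1* in the si*Tnks/2* libraries (1.39 to 2.51 CPM), and *Cyp1b1* and *Aldh3a1* are low with IWR-1.

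The receptor transcript fell with both inhibitors and showed no detectable change after the knockdown. *Ahr* (Entrez 11622, mm10 chr12:35497979-35534989, minus strand) was at 36.4, 29.8 and 33.9 CPM in DMSO replicates 1 to 3. XAV939 libraries had 18.5, 10.5 and 20.0 CPM, and IWR-1 libraries 10.3, 9.44 and 13.6 CPM. All 6 inhibitor libraries lay below all 3 DMSO libraries. The log2 change was -1.02 (SE 0.22, adjusted p = 0.0098, edgeR) with XAV939 and -1.58 (SE 0.22, adjusted p = 0.0003, edgeR) with IWR-1, and both comparisons use the same DMSO libraries. In the siRNA set *Ahr* was at 14.8, 10.7 and 17.1 CPM in siCtrl and at 15.3, 7.88 and 17.1 CPM in si*Tnks/2*. These groups overlapped, with a log2 difference of -0.08 (95% interval -0.79 to 0.62).

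The partner of AHR differed little between groups. *Arnt* (Entrez 11863, chr3:95434367-95497240, plus strand), which also pairs with hypoxia-inducible factors, was at 72.1, 71.5 and 82.1 CPM in DMSO. XAV939 libraries had 68.6, 65.3 and 70.7 CPM, while IWR-1 libraries had 64.9, 66.5 and 71.3 CPM. It was at 71.3, 69.6 and 71.3 CPM in siCtrl and 66.8, 65.8 and 66.6 CPM in si*Tnks/2*. Treated libraries were lower than their controls in all 3 comparisons without overlap, but the log2 differences were small, at -0.14 with XAV939, -0.16 with IWR-1 and -0.09 after the knockdown. None of them passed edgeR's test (adjusted p = 0.324, 0.226 and 0.227).

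*Ahrr* (Entrez 11624, chr13:74211118-74292331, minus strand), the repressor, is described by its levels. It had 50, 45 and 72 counts in DMSO, 395, 344 and 438 with XAV939 and 102, 91 and 158 with IWR-1. Scaled to depth these were 1.52, 1.31 and 2.26 CPM, 10.6, 12.9 and 13.5 CPM, and 2.96, 2.92 and 4.58 CPM. The 3 groups did not overlap, and IWR-1 lay between DMSO and XAV939. As a description, the log2 difference was 2.82 (SE 0.24), a fold of 7.07, with XAV939 and 1.02 (SE 0.24), a fold of 2.02, with IWR-1. In the siRNA set *Ahrr* was at 5.32, 6.76 and 5.85 CPM in siCtrl and 5.80, 6.24 and 7.44 CPM in si*Tnks/2*, which overlapped. The log2 difference there was 0.12 (SE 0.15). No p-value is given for *Ahrr*, because it was chosen on the contrast of XAV939 with the knockdown, and the other contrasts share libraries with it.

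The feedback enzyme moved in opposite directions in the 2 sets. *Tiparp* (Entrez 99929, chr3:65528447-65555518, plus strand) was at 100.5, 101.5 and 104.4 CPM in DMSO. XAV939 libraries had 73.4, 55.0 and 87.3 CPM, while IWR-1 libraries had 70.1, 75.9 and 75.2 CPM. It was at 50.7, 55.8 and 52.3 CPM in siCtrl and 66.6, 65.7 and 65.1 CPM in si*Tnks/2*. Every inhibitor library lay below every DMSO library, and every knockdown library lay above every siCtrl library. The log2 change was -0.51 (SE 0.14, adjusted p = 0.0337) with XAV939, -0.47 (SE 0.14, adjusted p = 0.0246) with IWR-1 and 0.31 (SE 0.06, adjusted p = 0.0153) after the knockdown (edgeR). These 3 calls were close to the threshold. That for XAV939 was lost without any DMSO library, XAV939 replicate 1 or IWR-1 replicate 2 (adjusted p up to 0.0883), that for IWR-1 without DMSO replicate 1 or IWR-1 replicate 1 or 2 (up to 0.0803) and that for the knockdown without siCtrl replicate 1 or 3 or si*Tnks/2* replicate 1 (up to 0.0724), while the size changed little. The start of *Tiparp* overlaps the noncoding RNA gene *4931440P22Rik*, so the counting could have split or discarded reads there.

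The classical target *Cyp1a1* (Entrez 13076, chr9:57687928-57703824, plus strand) was nearly silent except after the knockdown. Its counts were 4, 5 and 3 in siCtrl and 40, 44 and 77 in si*Tnks/2*. These correspond to 0.124, 0.185 and 0.092 CPM against 1.39, 1.57 and 2.51 CPM, so that every knockdown library stood well above every control library. The ratio of the summed counts, 161 against 12, scaled to depth, was 14.1 (95% exact interval 7.84 to 27.8, counting error only). This interval leaves out the spread between libraries and is no test. *Cyp1a1* passed the filter on low counts only through the knockdown libraries, the group where it was high, so its values are a description with no test. In the drug set it had 0, 0 and 0 counts in DMSO, 1, 1 and 5 with XAV939 and 2, 4 and 3 with IWR-1. It did not pass the filter there, and no fold or test is given, since the mean count per library did not exceed the floor of 3 counts in any group. The level after the knockdown remained low, at 0.654 CPM per kb of exon beside 36.6 CPM per kb for *Cyp1b1* in the same libraries.

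*Cyp1b1* (Entrez 13078, chr17:79706940-79715061, minus strand), which oxidizes steroids, retinoids and polycyclic hydrocarbons, was separated by compound. It was at 263.6, 221.6 and 221.0 CPM in DMSO. XAV939 libraries had 290.0, 223.1 and 323.5 CPM, while IWR-1 libraries had 67.1, 70.0 and 91.0 CPM. XAV939 and DMSO libraries overlapped, with a log2 difference of 0.24 (95% interval -0.11 to 0.60, adjusted p = 0.32). All IWR-1 libraries lay far below both, with a log2 change from DMSO of -1.63 (SE 0.16, adjusted p = 3.3e-05, edgeR), a 3.09-fold fall. In the siRNA set it was at 236.1, 329.4 and 247.7 CPM in siCtrl and 217.7, 190.3 and 233.0 CPM in si*Tnks/2*. The knockdown libraries were the lower ones, with a log2 difference of -0.34 (SE 0.14) that did not pass edgeR's test (adjusted p = 0.133).

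*Nqo1* (Entrez 18104, chr8:107388225-107403205, minus strand), a quinone reductase that also responds to the oxidative stress factor NRF2, rose after the knockdown. It was at 65.0, 59.9 and 71.5 CPM in siCtrl and 101.7, 101.4 and 108.8 CPM in si*Tnks/2*, a log2 change of 0.67 (SE 0.08, adjusted p = 0.0051, edgeR). In the drug set it was at 52.0, 56.0 and 66.5 CPM in DMSO. XAV939 libraries had 74.0, 69.2 and 112.1 CPM, while IWR-1 libraries had 70.8, 68.7 and 71.7 CPM. XAV939 replicate 3 was well above the others. The log2 change with XAV939 was 0.55 (SE 0.17, adjusted p = 0.0489, edgeR), just inside the threshold. It was 0.28 (adjusted p = 0.135, edgeR) without XAV939 replicate 3, and the call was lost in 7 of the 9 fits that left out a library, those without DMSO replicate 3 and XAV939 replicate 2 being the exceptions. IWR-1 gave 0.27 (95% interval -0.10 to 0.65, adjusted p = 0.240).

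*Aldh3a1* (Entrez 11670, chr11:61208510-61218418, plus strand), an aldehyde dehydrogenase, moved in opposite directions with the 2 compounds. It was at 4.18, 4.05 and 4.68 CPM in DMSO. XAV939 libraries had 5.36, 6.53 and 10.7 CPM, while IWR-1 libraries had 0.552, 0.642 and 0.812 CPM. XAV939 libraries lay above the DMSO libraries and IWR-1 libraries below them, each without overlap. The log2 change was -2.58 (SE 0.28, adjusted p = 5.2e-05, edgeR) with IWR-1, a 5.97-fold fall, and 0.80 (SE 0.24, adjusted p = 0.0419, edgeR) with XAV939. The latter call was lost in 8 of the 9 fits without a library, all but that without XAV939 replicate 1, and the change was 0.44 without XAV939 replicate 3. In the siRNA set *Aldh3a1* was at 1.87, 1.37 and 2.60 CPM in siCtrl and 1.56, 0.963 and 1.34 CPM in si*Tnks/2*, which overlapped (log2 difference -0.58, 95% interval -1.25 to 0.10).

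Leaving *Ahrr* and *Cyp1a1* aside, 2 of 6 pathway genes passed an adjusted p of 0.05 after the knockdown and both were higher (*Nqo1*, *Tiparp*), and 1 passed without siCtrl replicate 1 or 3 or si*Tnks/2* replicate 1. Of all 13672 genes tested in that comparison 18.0% passed, 10.4% higher and 7.61% lower. Calls over all genes fell from 2459 to 608, 678 and 800 without siCtrl replicate 1, siCtrl replicate 3 and si*Tnks/2* replicate 1. With XAV939, 4 of 6 passed, *Nqo1* and *Aldh3a1* higher and *Ahr* and *Tiparp* lower, beside 17.4% of 13873 genes (7.57% higher and 9.85% lower). This count was the least stable, and fell to 1, *Ahr*, without DMSO replicate 1 or 2 or IWR-1 replicate 2, and to 2 without 5 others of the 9 libraries. Calls over all genes went from 2416 to 1322, 2271 and 1906 without DMSO replicate 1, DMSO replicate 2 and IWR-1 replicate 2. With IWR-1, 4 of 6 passed and all 4 were lower (*Ahr*, *Cyp1b1*, *Tiparp*, *Aldh3a1*), beside 36.4% of all genes (16.2% higher and 20.2% lower). The median log2 difference of these 6 genes was -0.09 after the knockdown, 0.05 with XAV939 and -1.02 with IWR-1, while that of all genes lay within 0.02 of 0 in each. The study's own limits for differential expression, a fold above 3 and an adjusted p under 1e-05, were met by 0 of these genes in edgeR's fit and, with DESeq2, by *Ahr*, *Cyp1b1* and *Aldh3a1* with IWR-1. Over all genes edgeR's fit put 0 past these limits after the knockdown, 1 with XAV939 and 145 with IWR-1. No share over all genes is given for DESeq2 at these limits, and edgeR's counts are no background for it. The genes named for DESeq2 therefore cannot be read as standing out from the rest.

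**Figure D3:**
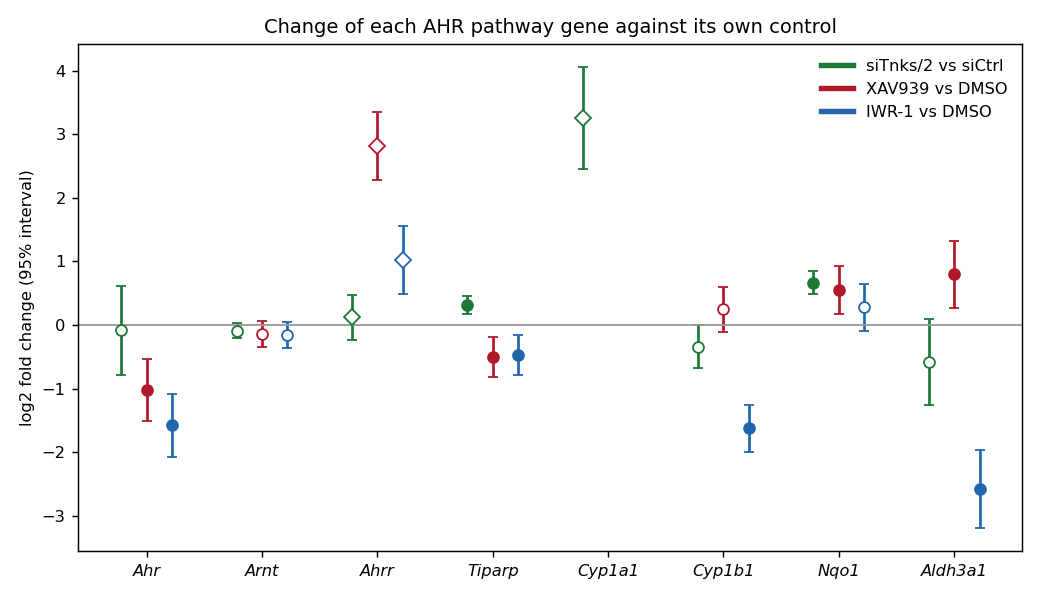
Log2 fold change of each AHR pathway gene against its own control (siCtrl or DMSO) with its 95% interval. Filled symbols passed an adjusted p of 0.05, open circles did not, and open diamonds mark *Ahrr* and *Cyp1a1*, which carry no test. The intervals drawn for these 2 genes are a description and are not to be read as a test. *Cyp1a1* is shown for the knockdown only. *Cyp1b1* (-1.63) and *Aldh3a1* (-2.58) are lowest with IWR-1, and *Ahrr* is farthest from 0 with XAV939 (2.82).

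Setting the compounds against each other, at the same dose and time, separated 2 of 6 tested genes, beside 17.6% of all genes. *Cyp1b1* was lower with IWR-1 than with XAV939 by a log2 difference of -1.87 (SE 0.17, adjusted p = 7.7e-05, edgeR), and *Aldh3a1* by -3.38 (SE 0.28, adjusted p = 5.4e-05, edgeR). *Ahrr* was lower by -1.80 (SE 0.23), given as a description. *Ahr* was lower by -0.55 (SE 0.22) and did not pass (adjusted p = 0.115, edgeR). It passed with the replicate number as a block (adjusted p = 0.0153) and without XAV939 replicate 2 (-0.79, adjusted p = 0.0122). For *Tiparp* the difference was 0.04 (95% interval -0.28 to 0.35), for *Nqo1* -0.27 (-0.65 to 0.10) and for *Arnt* -0.01 (-0.22 to 0.19).

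A model over all 15 libraries tested whether each inhibitor changed a gene differently from the knockdown, each against its own control. For XAV939 against the knockdown 2 of 6 genes passed, beside 13.5% of 14271 genes. *Tiparp* differed by -0.84 (SE 0.17, adjusted p = 0.0059, edgeR) and *Aldh3a1* by 1.36 (SE 0.39, adjusted p = 0.0318, edgeR). The *Aldh3a1* call was lost in 7 of the 15 fits without a library, namely siCtrl replicate 1 or 3, si*Tnks/2* replicate 2 or 3, DMSO replicate 1 or 2 and XAV939 replicate 3 (adjusted p up to 0.0947, difference down to 1.03). *Ahr* differed by -0.95 (SE 0.38, adjusted p = 0.115, edgeR), and passed with the replicate block (adjusted p = 0.00397) and without si*Tnks/2* replicate 2 (-1.22, adjusted p = 0.0264). For *Nqo1* the difference was -0.13 (95% interval -0.58 to 0.32). *Ahrr* differed by 2.68 (SE 0.30), which is the value it was chosen for.

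For IWR-1 against the knockdown 4 of 6 genes passed and all were lower with IWR-1, beside 24.4% of all genes. The log2 differences were -2.0 for *Aldh3a1* (SE 0.41, adjusted p = 0.0028), -1.50 for *Ahr* (SE 0.39, adjusted p = 0.011), -1.30 for *Cyp1b1* (SE 0.23, adjusted p = 0.00096) and -0.79 for *Tiparp* (SE 0.17, adjusted p = 0.0035), all by edgeR. *Nqo1* differed by -0.40 (adjusted p = 0.185) and passed without XAV939 replicate 3 (adjusted p = 0.0488). In the same contrast *Ahrr* differed by 0.88 (SE 0.30). *Cyp1a1* was left out of both contrasts because DMSO had 0 counts.

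Genes around the pathway were read from fixed lists with the same tests, and the shares over all genes given above serve as the background. Other fits have their own background. With the replicate block edgeR called 4727 of 13672 genes after the knockdown, 4630 of 13873 with XAV939 and 6593 of 13873 with IWR-1. DESeq2 called 3172, 2922 and 5305 genes in the same comparisons. No share over all genes is given at an unadjusted p under 0.05, so the unadjusted counts below are listed without a background. After the knockdown, 608, 930 and 678 genes were called without siCtrl replicates 1, 2 and 3. Without si*Tnks/2* replicates 1, 2 and 3 these were 800, 2868 and 2229. Leaving out single libraries gave 1322 to 2484 calls with XAV939 and 3771 to 5669 with IWR-1. The cytoplasmic chaperone complex of AHR changed little. Of 6 genes tested, *Hsp90aa1*, an HSP90 subunit, was called with XAV939 (-0.46, SE 0.12, adjusted p = 0.0263, edgeR), and this was lost without DMSO or XAV939 replicate 1. No chaperone gene was called by edgeR after the knockdown (0 at an unadjusted p under 0.05, 0 by DESeq2) or with IWR-1 (2 unadjusted, 1 by DESeq2, 2 with the replicate block and 2 without XAV939 replicate 2). Among the relatives of ARNT and AHR, the clock gene *Arntl* (BMAL1) rose by 0.50 (SE 0.09, adjusted p = 0.0171) after the knockdown and fell by 0.88 (SE 0.15, adjusted p = 0.003) with XAV939 and by 0.91 (SE 0.15, adjusted p = 0.00076) with IWR-1 on the log2 scale (edgeR). *Hif1a*, the hypoxia factor that pairs with ARNT, rose by 0.38 (SE 0.08, adjusted p = 0.0213, edgeR) after the knockdown. *Epas1*, which encodes HIF-2α, fell with IWR-1 by a log2 change of -1.22 (SE 0.11, adjusted p = 1.5e-05, edgeR). In all, 2 of 9 tested bHLH-PAS genes were called after the knockdown (6 with the replicate block), 2 of 10 with XAV939 (5 with the block) and 4 of 10 with IWR-1. Both inhibitor counts include *Npas1*, which passed the filter only through the DMSO libraries (100 counts in DMSO, 10 with XAV939 and 4 with IWR-1) and is given no test. With *Npas1* left aside, the calls were *Arntl* with XAV939, and *Arntl*, *Epas1* and *Npas3* with IWR-1. *Npas3* was higher (0.76, SE 0.14, adjusted p = 0.0018, edgeR). The count after the knockdown was 0 without siCtrl replicate 1 or 3, 1 without siCtrl replicate 2 or si*Tnks/2* replicate 1 and 5 without si*Tnks/2* replicate 2, and that with XAV939 was 4 without XAV939 replicate 3. The XAV939 counts from the block and from this last fit may also include *Npas1* and are no test of it.

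Other genes known to respond to AHR showed no common direction. After the knockdown 4 of 15 rose and 1 fell. *Aldh1a3*, a retinaldehyde dehydrogenase, rose by 2.13 (SE 0.31, adjusted p = 0.0085) and *Scin*, an actin-severing protein, by 0.96 (SE 0.19, adjusted p = 0.0194), while *Ereg*, an EGF-family ligand, fell by 1.51 (SE 0.27, adjusted p = 0.014), all on the log2 scale by edgeR. With XAV939 3 of 14 rose and 1 fell, among them *Serpinb2*, a protease inhibitor (1.74, SE 0.39, adjusted p = 0.0119), and *Slc7a5*, an amino acid transporter (0.63, SE 0.17, adjusted p = 0.0271, edgeR). The glutathione transferase *Gsta1* was the 1 that fell (-1.47, SE 0.35, adjusted p = 0.0165, edgeR), and its near-identical relatives make its counts uncertain. With IWR-1 5 of 14 rose and 7 fell. *Socs2*, an inhibitor of cytokine signalling, rose by 2.03 (SE 0.21), *Scin* by 2.04 (SE 0.24) and *Slc7a5* by 1.56 (SE 0.17), with adjusted p of 3.3e-05, 9.8e-05 and 6.0e-05 (edgeR). With the replicate block 8 genes were called after the knockdown and 9 with XAV939. The count after the knockdown fell to 1 without siCtrl replicate 3 or si*Tnks/2* replicate 1 and to 2 without siCtrl replicate 1 or 2, and that with XAV939 was 1 without DMSO replicate 1, 2 without XAV939 replicate 2 and 8 without XAV939 replicate 3.

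Targets of NRF2, the other regulator of *Nqo1*, mostly fell with both inhibitors. With XAV939 7 of 12 fell and 0 rose by edgeR (0 rose at an unadjusted p under 0.05, 0 by DESeq2 and 1 with the replicate block), and with IWR-1 9 fell and 1 rose. *Hmox1*, heme oxygenase, fell with XAV939 by a log2 change of -1.17 (SE 0.12, adjusted p = 0.00014), *Srxn1*, a reductase of oxidized peroxiredoxins, by -0.97 (SE 0.11, adjusted p = 0.00038) and the exporter *Abcc1* by -0.90 (SE 0.12, adjusted p = 0.00092). With IWR-1 *Srxn1* was at -1.27 (SE 0.12, adjusted p = 1.8e-05), *Abcc1* at -1.20 (SE 0.12, adjusted p = 4.0e-05) and *Pgd*, a pentose phosphate enzyme, at -0.97 (SE 0.10, adjusted p = 4.0e-05), all by edgeR. After the knockdown 2 rose, including *Me1* (0.44, SE 0.07, adjusted p = 0.0111), the malic enzyme, and *Srxn1* (0.25, SE 0.07, adjusted p = 0.0437), and 2 fell, including *Pgd* (-0.21, SE 0.05, adjusted p = 0.0369, edgeR). With the replicate block 8 genes were called after the knockdown and 11 with XAV939. The count after the knockdown was 0 without siCtrl replicate 1 or 3, 1 without siCtrl replicate 2 or si*Tnks/2* replicate 1 and 2 without si*Tnks/2* replicate 3.

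The remaining lists held few calls. Of 15 coregulators of AHR and AHRR, 4 rose after the knockdown, including the coactivator *Ncoa3* (0.22, SE 0.06, adjusted p = 0.0374), and 3 fell with IWR-1, including the deacetylase *Hdac5* (-0.53, SE 0.12, adjusted p = 0.0067, edgeR). None was called with XAV939 by edgeR (1 at an unadjusted p under 0.05, 0 by DESeq2). The replicate block gave 9, 7 and 1 calls for the knockdown, IWR-1 and XAV939, and the knockdown count was 0 without siCtrl replicate 1 or 3 and 1 without siCtrl replicate 2 or si*Tnks/2* replicate 1, while that with IWR-1 was 5 without DMSO replicate 3. Among 7 genes of AHR turnover and ADP-ribose handling, *Tbl3* was called after the knockdown (-0.38, SE 0.07, adjusted p = 0.0152, edgeR), a call lost without siCtrl replicate 1 or 3 and joined by another without si*Tnks/2* replicate 2 or 3. With XAV939 and with IWR-1 edgeR called 0 of the 7 (1 and 1 unadjusted, 0 and 0 by DESeq2, 2 and 1 with the block), and 1 was called without XAV939 replicate 3 and replicate 2 respectively. Of 10 enzymes that make or remove tryptophan-derived ligands, 4 were tested, and these did not include *Ido1* and *Tdo2*, the enzymes that open the pathway. *Haao*, a dioxygenase, had 5, 6 and 4 counts in siCtrl and 13, 19 and 11 in si*Tnks/2*. It passed the filter only through the knockdown libraries, so its test is left out. With *Haao* left aside, edgeR called none of the tested enzymes after the knockdown. The other fits were counted over the whole list, so *Haao* may be among their calls, which are no test of it. These calls numbered 3 with the block, 2 without si*Tnks/2* replicate 3 and 0 without any 1 of the other 5 libraries. With IWR-1 the aminotransferases *Kyat1* and *Kyat3* rose by 0.53 (SE 0.18) and 0.73 (SE 0.20) and *Afmid*, which releases kynurenine, fell by 0.54 (SE 0.16) on the log2 scale (adjusted p = 0.044, 0.016 and 0.0192, edgeR), and these calls numbered 0 without DMSO replicate 1 or IWR-1 replicate 2 and 1 without IWR-1 replicate 1. With XAV939 edgeR called 0 of 4 (1 unadjusted, 0 by DESeq2, 2 with the block, 1 without XAV939 replicate 3).

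**Figure D4:**
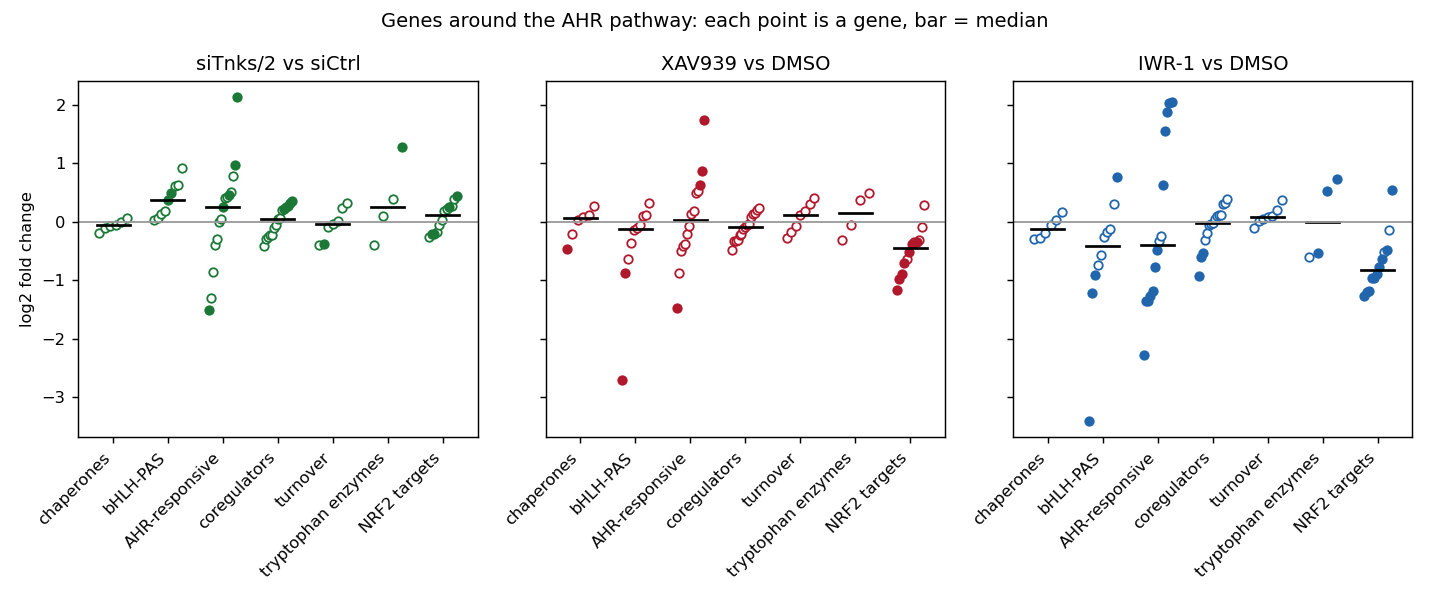
Log2 fold changes of the tested genes of 7 lists around the AHR pathway, each point a gene and each bar the median, in the 3 comparisons with a control. Filled points passed an adjusted p of 0.05 over all genes. They include *Haao* after the knockdown and *Npas1* with both inhibitors. These genes passed the filter on low counts only through the group where they were high, so their filled points are not to be read as a test. NRF2 targets lie mostly below 0 with XAV939 (7 of 12 called lower) and IWR-1 (9 of 12), and the AHR-responsive genes lie on both sides of 0.

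The genes whose levels followed *Ahrr* most closely were *Aspg*, *Iffo1* and *Exoc3*. Likeness was the Pearson correlation of log2 CPM, taken relative to the mean of each set's own control, over the 15 libraries, which fall into 5 groups, and 12397 genes were compared. The correlation was 0.945 for *Aspg*, 0.916 for *Iffo1* and 0.908 for *Exoc3*. *Aspg*, an asparaginase, was at 4.42, 4.86 and 3.74 CPM in DMSO. XAV939 libraries had 11.5, 12.2 and 11.5 CPM, while IWR-1 libraries had 6.10, 5.26 and 6.96 CPM. *Exoc3*, a subunit of the exocyst that tethers vesicles to the plasma membrane, was at 48.7, 51.1 and 46.7 CPM in DMSO. XAV939 libraries had 72.8, 77.0 and 64.8 CPM, while IWR-1 libraries had 58.7, 56.6 and 58.5 CPM. It was at 65.2, 63.7 and 68.5 CPM in siCtrl and 60.5, 59.2 and 63.3 CPM in si*Tnks/2*. These are the levels the genes were chosen on, so their likeness to *Ahrr* is no further result.

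*Exoc3* is also the next gene on the chromosome, a feature looked at only after its values were seen. It lies at chr13:74169802-74210032 on the minus strand, 1086 bases beyond the 3′ end of *Ahrr*, which is on the same strand. Its log2 difference with XAV939 was 0.55 (SE 0.09), against 2.82 for *Ahrr*, and with IWR-1 0.25 (SE 0.09). The nearest tested gene on the other side, *Pdcd6*, which encodes a calcium-binding protein, lies 10790 bases away and differed by 0.09 (SE 0.14) with XAV939. Within 500000 bases on either side and with *Exoc3* left out, edgeR called 2 of 14 tested genes with XAV939, *Brd9* higher and *Cast* lower, 4 of 14 after the knockdown and 5 of 14 with IWR-1. These counts stand beside the background of 17.4%, 18.0% and 36.4%. The counts give no positions within a gene.

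**Figure D5:**
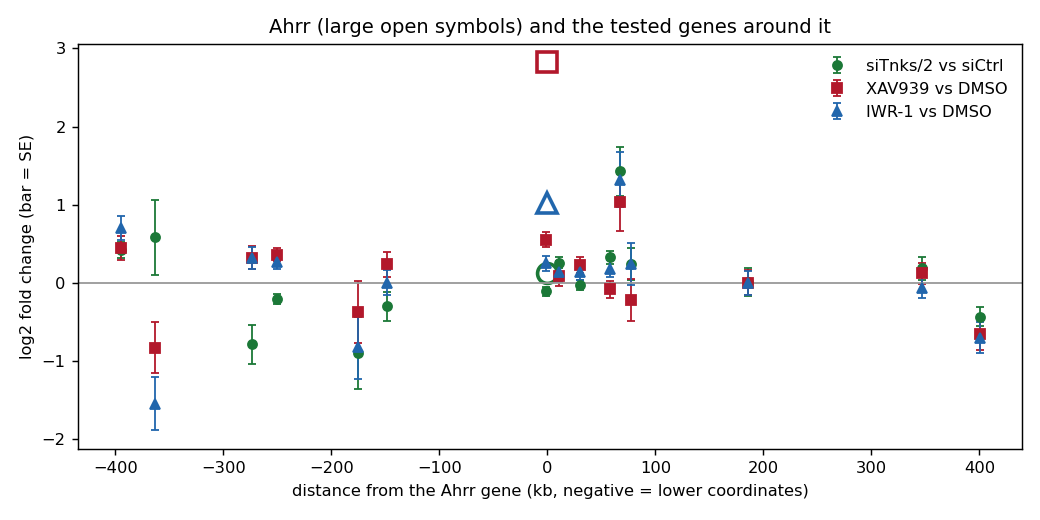
Log2 fold change of *Ahrr* (large open symbols at 0 kb) and of the 15 tested genes around it, by distance from the *Ahrr* gene in kb, with the SE of each neighbour. With XAV939 *Ahrr* is at 2.82 and its nearest neighbour *Exoc3* at 0.55, while *Pdcd6*, the nearest on the other side, is at 0.09.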

How the data were processed

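RNA sequencing (poly(A)-selected, stranded libraries) measured 15 libraries in 5 groups of 3. Raw counts per gene were deposited by the authors, who counted with HTSeq 0.6.1p1 after trimming (Trimmomatic 0.32) and alignment to mm10 (TopHat2 2.0.13). The annotation and strand setting of the counting are not given in the sources used here, so overlapping genes may share or lose reads. Entrez IDs were matched to symbols for 24051 of 24134 IDs in each table. Gene spans are from GENCODE on GRCm38 and promoters from RefSeq.

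Counts were fitted in R 4.3.3 with edgeR 4.0.16 (TMM, filterByExpr, quasi-likelihood F test), in 1 model per table without covariates, and log2 fold changes used a prior count of 2. Two-sided p-values were adjusted by Benjamini and Hochberg's method across every gene of a fit. Inhibitor and knockdown effects were compared in 1 model over the 15 libraries. CPM values are scaled within each table. SEs were derived from the log2 change and its F value. The scripts were tested on simulated data. DESeq2 1.42.0, other scalings and filters, a replicate block and leaving out each library were the alternatives. The AHR pathway genes, the lists and the genes named from them (up to 3 per list with the smallest adjusted p among those called, and the 3 genes most like *Ahrr* with a mean of at least 1 CPM) were chosen with earlier results of these data known.

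Same-numbered libraries within a table deviated together: after removal of group means their correlations were 0.143 to 0.553 in 9 pairs of the drug set and 0.424 to 0.519 in 3 pairs of the siRNA set, all above the limit of 0.1, so the numbers were taken to pair the libraries. Differently numbered pairs ran from -0.409 to 0.0972 in the siRNA set and from -0.489 to 0.318 in the drug set. DMSO replicate 2 was above the limit with XAV939 replicate 1 (0.318) and IWR-1 replicate 1 (0.316). The main tests left this pairing out, and only the fit with the replicate block used it. Reads carry no molecular identifiers, and count intervals cover counting error only. A count of 0 in a DMSO library allows up to 3 counts, at most 0.0943 CPM.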

Additional observations from a re-analysis of the deposited data

Results flagged for a closer look

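The effects of an inhibitor and of the knockdown differed, by the test of the difference itself (edgeR, 3 libraries per group), for 4 of the pathway genes. For XAV939, where 13.5% of all genes passed, these were *Tiparp*, with a log2 difference of -0.84, and *Aldh3a1*, with 1.36. The *Aldh3a1* call was lost in 7 of the 15 fits without a library. *Ahr* did not pass for XAV939 in the main fit but did with the replicate block (adjusted p = 0.00397, edgeR). For IWR-1, where 24.4% of all genes passed, the genes that differed were *Ahr* with -1.50, *Cyp1b1* with -1.30, *Tiparp* with -0.79 and *Aldh3a1* with -2.0. *Tiparp* was lower with both inhibitors and higher after the knockdown in every library. The sets also differ in transfection and control, which cannot be told apart from the treatments here. Groups of 3 libraries were not screened for single outlying values.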

How the results depend on the processing

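Of 725 log2 values of single pathway genes under an alternative, 718 kept their direction. These values include *Ahrr* and *Cyp1a1*, and the alternatives refit the same libraries, so the shared direction is a description and no independent support. The calls of *Nqo1* after the knockdown, of *Ahr* with XAV939, and of *Ahr*, *Cyp1b1* and *Aldh3a1* with IWR-1 held under every alternative run apart from the study's limits. *Cyp1a1* could not be tested with at least 10 counts in every library. At those limits (fold above 3, adjusted p under 1e-05) edgeR called 0 pathway genes in each of the 6 comparisons. Few genes of any kind met them in edgeR's fits. Over all genes these were 0 after the knockdown, 1 with XAV939, 145 with IWR-1 and 0 for IWR-1 against XAV939. Against the knockdown they were 1 for XAV939 and 57 for IWR-1. With XAV939 and DMSO fitted alone, 1 gene passed in place of 4, *Nqo1*, *Tiparp* and *Aldh3a1* being lost. *Nqo1* with XAV939 was also lost with RLE scaling (adjusted p = 0.0531) and with at least 10 counts in every library (adjusted p = 0.0507). Leaving out each library gave 1 to 3 calls for XAV939, 1 to 2 for the knockdown with *Cyp1a1* left aside, 3 to 4 for IWR-1, 2 to 3 for IWR-1 against XAV939, 1 to 2 for XAV939 against the knockdown and 4 to 5 for IWR-1 against the knockdown. Values near 0 changed sign: *Ahr* after the knockdown ranged from -0.29 to 0.18, *Arnt* between the compounds from -0.052 to 0.024, *Tiparp* between them from -0.12 to 0.20, and *Arnt* for XAV939 against the knockdown from -0.10 to 0.0089, the last also turning to 0.0049 with upper-quartile scaling. The cause was not tested. That scaling raised the share of higher calls among all genes from 40.1% to 52.7% for XAV939 against the knockdown. The replicate block called 4727 genes after the knockdown (2459 without), 4630 with XAV939 (2416) and 6593 with IWR-1 (5049). It called 4258 for IWR-1 against XAV939 (2442). Against the knockdown it called 4018 for XAV939 (1922) and 5181 for IWR-1 (3483). Beyond *Ahr*, as given, and the lists, the paired fit changed no call of a pathway gene. Fitting XAV939 and DMSO alone called 1569 genes. Leaving out single libraries gave 608 (without siCtrl replicate 1) to 2868 calls after the knockdown and 1322 (without DMSO replicate 1) to 2484 with XAV939. The settings for the lists were chosen after seeing the data.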

Other observations

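The untreated state of the pathway differed between the sets, whose tables were normalized separately, so these levels are only set side by side. *Ahr* was 2.35 times as high in DMSO (33.4 CPM ± 3.37, SD, n = 3) as in siCtrl (14.2 CPM ± 3.24), *Tiparp* 1.93 times (102.1 CPM ± 2.00 against 52.9 CPM ± 2.60) and *Aldh3a1* 2.21 times (4.30 CPM ± 0.336 against 1.95 CPM ± 0.621). *Ahrr* went the other way and was 3.52 times as high in siCtrl (5.98 CPM ± 0.731) as in DMSO (1.70 CPM ± 0.50). *Arnt*, *Nqo1* and *Cyp1b1* lay within 1.2 times of each other between the controls. The summed level of chondrocyte markers was higher and that of fibroblast and synovial markers lower in siCtrl than in DMSO, and the set, the transfection and the culture cannot be told apart. *Ahrr* was at 12.4 CPM ± 1.51 with XAV939, above its siCtrl level, and at 3.49 CPM ± 0.946 with IWR-1, below it.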
